A study of Mus musculus with 40 samples.

Results

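Morphine given to adult mice that drank plain water was compared with saline given to mice of the same age on the same drink. The comparison holds 10 of the 40 libraries of the series, 5 labelled adult, water and morphine and 5 labelled adult, water and saline. All were made from polyadenylated RNA of wild type C57BL/6J females, an inbred laboratory strain, whose treatment began as adults on postnatal day 55. For 5 days the mice received subcutaneous injections of either saline or morphine at 15 mg/kg, and none of these 10 libraries is from a mouse given antibiotics. Adolescents on water (start on postnatal day 25) and adults on oral antibiotics, each with 5 saline and 5 morphine libraries, were set beside the adult response on water, and all 40 libraries entered the model that estimates the spread. The tissue label reads brain with all cell types, and the medial prefrontal cortex is named in the series title. The labels do not state that each library is from its own mouse, so the p-values describe the spread among these libraries, which may be technical. No source used here gives the hour at which tissue was taken.

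Morphine acts on opioid receptors, which are coupled to inhibitory G proteins and quiet the neurons that carry them. Immediate early genes such as Fos, Arc and Egr2 are transcribed within minutes of neuronal firing and growth factor signalling, without new protein synthesis, so their RNA follows recent activity. The circadian clock is a loop in which CLOCK and BMAL1 (encoded by Arntl) activate period, cryptochrome and other repressor genes through E-box sequences, and the repressors then switch their own genes off. The PAR bZIP factors DBP, TEF and HLF carry the rhythm to output genes. In the cortex many of these clock genes also respond to glucocorticoids, feeding and arousal.

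The 10 libraries held 9.1 to 10.4 M counts, with means of 9.7 ± 0.546 M for saline and 9.62 ± 0.41 M for morphine (SD, n = 5 each), and 3 counts stood for 0.289 to 0.33 CPM, the unit of counts scaled to a common library total. Xist, the transcript of the inactive X chromosome, was read at 571 to 758 CPM in all 10, and 4 Y chromosome genes had 0 counts. Excitatory neuron markers summed to 7445 to 8546 CPM in the saline and 7827 to 9198 CPM in the morphine libraries, and 8 of the 10 choroid plexus and ependymal markers were too low to be tested. Along the first principal component (16.9% of variance over the 1000 genes that varied most) saline libraries lay from -9.12 to -4.4 and morphine libraries from 0.00446 to 16.8. Morphine replicate 3 stood apart on the second component (14.7%), at -18.3.

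Of 17880 genes tested with edgeR, 85 (0.475%) differed between morphine and saline at an adjusted p under 0.05, which is the threshold for "called" throughout. In all, 47 genes (0.263%) were higher with morphine and 38 (0.213%) lower. The genes called lower moved further, with a median log2 fold change of -0.648 against 0.402 for those called higher, beside 0.0123 over all genes tested. Of the called genes 9 were lower and 2 higher by more than 2-fold in the fitted values, the higher ones being Kcng4 and AC167245.1, which had under 3 counts in saline replicates 1 to 4. Among the lists examined, the called clock genes (10) were all higher and the called immediate early genes (16) all lower. The lists were chosen with earlier results of these data known, so a high share of calls in a list is not independent support. Together the lists held 29 of the 85 called genes, and 56 were in no list. Of those called, 38 of 47 higher and 35 of 38 lower genes had no overlap between the groups, as had 2.51% of all genes. The count depended on single libraries: it was 41, 46, 36 and 43 without saline replicates 2, 3, 4 and 5, 30, 51 and 50 without morphine replicates 1, 3 and 5, and 153 without morphine replicate 4. Whichever library was left out, 25 of the 85 remained called.

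**Figure D1:**
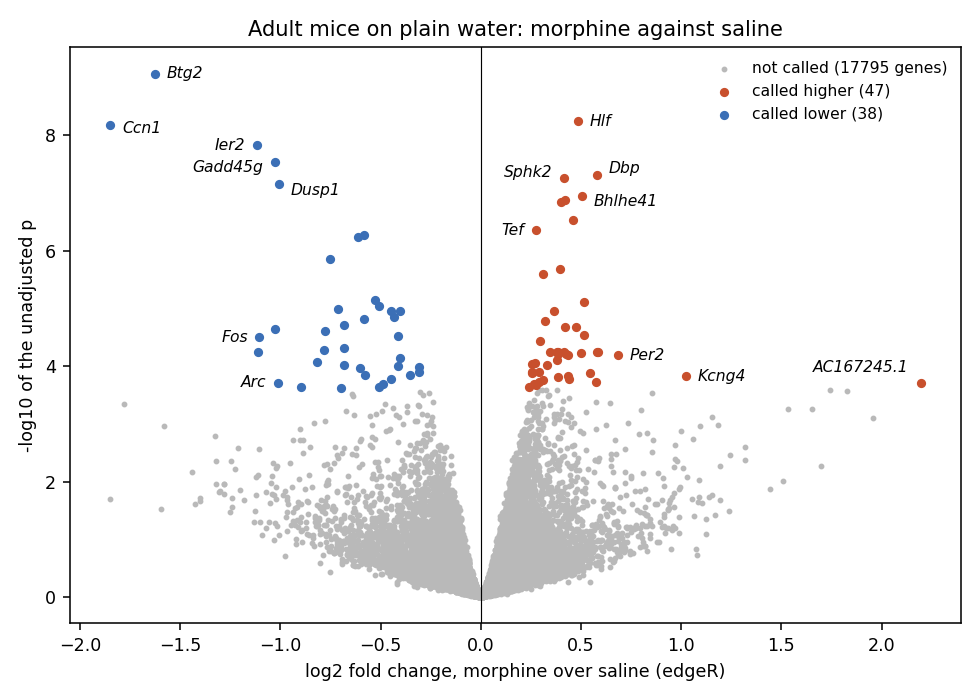
Each point is one of the 17880 genes tested, with the log2 fold change of morphine over saline on the horizontal axis and -log10 of the unadjusted p on the vertical axis. The 47 genes called higher start at a log2 fold change of 0.242, and the 38 called lower reach -1.85 (Ccn1). The red point farthest to the right, AC167245.1, has too few saline counts for its position to measure a fold.

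Promoters of some called clock and early genes are shown first. The E-box is the element through which the clock acts, and the cAMP response element (CRE) one through which neuronal activity acts. The E-box was searched as CACGTG and the CRE as TGACGTCA, each on both strands, in the 300 bases from 250 before to 50 after each RefSeq transcription start (build GRCm38.p6, which is mm10). Neither motif contains the other. Promoters were in the table for 8 of the 10 called clock genes and for 13 of the 17 early genes called lower (16 immediate early genes and Dusp1). The 250 bases before the start are printed 5′ to 3′ on the strand of the gene, with each E-box or CRE in capitals. Those printed are a selection, and each holds a match. Left out are promoters without a match, Hlf with a CRE, and Egr2, Gadd45b and Gadd45g with an E-box. For a gene with more than 1 start, such as Tef with 2, the start with the most kinds of motif was taken.
Ciart (chr3:95882229-95882478, minus strand): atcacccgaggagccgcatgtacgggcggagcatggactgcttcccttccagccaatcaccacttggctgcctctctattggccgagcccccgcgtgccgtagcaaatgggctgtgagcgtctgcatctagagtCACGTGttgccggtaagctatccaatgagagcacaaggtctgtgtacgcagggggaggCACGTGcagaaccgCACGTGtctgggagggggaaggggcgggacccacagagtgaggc
Bhlhe41 (chr6:145865421-145865670, minus strand): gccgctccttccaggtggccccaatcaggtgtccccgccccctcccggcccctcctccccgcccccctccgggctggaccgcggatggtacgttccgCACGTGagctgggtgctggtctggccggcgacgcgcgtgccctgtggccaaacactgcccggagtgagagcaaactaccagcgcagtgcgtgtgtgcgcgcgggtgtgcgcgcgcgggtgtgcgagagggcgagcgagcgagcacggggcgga
Cry1 (chr10:85185055-85185304, minus strand): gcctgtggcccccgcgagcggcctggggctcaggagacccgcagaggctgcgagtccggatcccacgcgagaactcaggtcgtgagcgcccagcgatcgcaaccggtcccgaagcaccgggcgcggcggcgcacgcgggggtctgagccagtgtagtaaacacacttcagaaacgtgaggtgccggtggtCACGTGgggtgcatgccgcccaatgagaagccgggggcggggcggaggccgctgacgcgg
Tef (chr15:81802423-81802672, plus strand): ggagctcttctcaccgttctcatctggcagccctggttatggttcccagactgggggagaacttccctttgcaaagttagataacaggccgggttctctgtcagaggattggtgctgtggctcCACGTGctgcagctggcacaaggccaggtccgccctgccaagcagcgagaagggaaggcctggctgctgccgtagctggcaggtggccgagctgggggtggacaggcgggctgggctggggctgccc
Btg2 (chr1:134079156-134079405, minus strand): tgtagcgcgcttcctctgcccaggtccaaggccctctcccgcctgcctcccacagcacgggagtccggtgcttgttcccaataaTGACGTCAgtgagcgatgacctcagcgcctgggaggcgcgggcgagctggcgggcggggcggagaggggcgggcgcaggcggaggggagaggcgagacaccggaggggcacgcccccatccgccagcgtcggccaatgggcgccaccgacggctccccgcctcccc
Dusp1 (chr17:26508473-26508722, minus strand): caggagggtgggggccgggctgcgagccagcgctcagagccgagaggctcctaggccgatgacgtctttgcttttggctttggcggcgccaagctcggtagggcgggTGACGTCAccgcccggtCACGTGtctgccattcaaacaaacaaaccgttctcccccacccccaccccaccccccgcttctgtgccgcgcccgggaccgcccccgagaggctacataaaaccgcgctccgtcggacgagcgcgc

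An E-box was present in 4 of the 8 clock genes, Ciart, Bhlhe41, Cry1 and Tef, or 50%, against 8.09% of all 27025 genes in the table and 7.15% of its 32851 promoters. Ciart held 3, starting 116, 58 and 44 bases before the start site according to the same table. Among the 13 early genes, 4 held an E-box (30.8%) and 2 a CRE, Btg2 and Dusp1 (15.4%, against 2.03% of all genes). The CRE of Btg2 began 166 bases before the start site and that of Dusp1 143 bases before it. Of the clock genes only Hlf held a CRE in this window. Over all called genes with a promoter, a CRE was in 3 of 31 called higher (9.68%) and 2 of 26 called lower (7.69%). An E-box was in 6 of the 31 (19.4%) and 7 of the 26 (26.9%). The D-box, TTATGTAA, to which the PAR bZIP proteins bind, was in none of these promoters and in 1.11% of all genes, and the CArG box of serum response factor was in Egr2 alone among the 13 (1.81% of all genes). These are matches of letters in a short window and describe the promoters only.

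The PAR bZIP genes rose together. All 3 of the 3 genes were called higher, beside 0.263% of all genes, with a median log2 fold change of 0.487. As the clock lists were chosen with earlier results known, such shares only describe them. Their summed level was 649.8 ± 4.92 CPM in saline and 852 ± 5.54 CPM in morphine libraries (SD, n = 5 each), and the lowest morphine sum (846.9) was above the highest saline sum (654.1). These SDs are below those of the members (18, 17.7 and 16.1 CPM for Hlf, Dbp and Tef in morphine libraries), and in the 6 other groups of the series the SD of the sum was 22.9 to 46 CPM. In morphine replicate 3 Dbp was the lowest of its group and Tef the highest. Hlf stood at 196, 204, 184, 197 and 221 CPM in saline replicates 1 to 5 and at 287, 279, 287, 251 and 299 CPM in morphine replicates 1 to 5. All 5 morphine libraries were above all 5 saline libraries. Its log2 fold change was 0.49 ± 0.07 (SE; edgeR adjusted p = 3.89e-05), or 1.4-fold. Dbp was read at 104, 87.5, 97.6, 94.8 and 89.3 CPM with saline and at 142, 158, 112, 151 and 144 CPM with morphine. Morphine replicate 3 was the lowest of its group but still above every saline library. The log2 fold change of Dbp was 0.58 ± 0.09 (SE; edgeR adjusted p = 0.000141), or 1.5-fold. Tef was at 354, 360.2, 368, 360.5 and 331 CPM against 425, 413, 448, 446 and 417 CPM. The groups did not overlap, and its log2 fold change was 0.28 ± 0.05 (SE; edgeR adjusted p = 0.000602). Of the 85 called genes, 33 share exon sequence with another gene, 28 of them with one on the opposite strand. Dbp shares it with Sphk2 on the opposite strand, and Tef with Gm17597. In some pairs both genes were called in the same direction: Dbp and Sphk2, Bhlhe41 and Gm43909 (higher), and Cdkn1c and Gm44732 (lower). No source used here states whether counting used strand. Whether reads in the shared sequence bear on the values of such pairs was not tested. The same holds for Rora with Gm15511, Enpp2 with Gm26684, Csrnp1 with 1700019L13Rik and Kcnq5 with Gm26580.

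Clock repressors rose as well. Of 10 tested, 6 were called higher, beside 0.263% of all genes, and 0 lower. A positive log2 fold change was found for 9, and the median was 0.41. The number called was 3 without saline replicate 4 or morphine replicates 1 and 5. Bhlhe41 and Bhlhe40 encode DEC2 and DEC1, which repress E-box genes. Bhlhe41 was at 40.3, 40.7, 41.7, 36.2 and 43.1 CPM in saline and 53.7, 61.4, 56, 60.8 and 55 CPM in morphine replicates 1 to 5. Every morphine value exceeded every saline value, with a log2 fold change of 0.51 ± 0.08 (SE; edgeR adjusted p = 0.000218). Bhlhe40 rose by 0.40 ± 0.07 on the log2 scale, from 137 to 178 CPM over the saline libraries to 179 to 228 CPM over the morphine libraries (edgeR adjusted p = 0.00215). Nr1d2, which encodes the nuclear receptor REV-ERB beta, rose from 89.1 to 99.3 CPM to 108 to 135 CPM, a log2 fold change of 0.40 ± 0.07 (SE; edgeR adjusted p = 0.000232). Both sets of libraries were apart for these genes too. Bhlhe41 and Bhlhe40 overlap Gm43909 and 0610040F04Rik on the opposite strand. Gm43909 was itself called higher (log2 fold change 0.52, edgeR adjusted p = 0.00692).

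Of the period and cryptochrome genes, Per2 and Cry1 were called. Per2 was at 44.9, 32.1, 31.6, 45.7 and 54 CPM with saline and at 58.9, 78.1, 60.8, 64.8 and 71.1 CPM with morphine. Saline replicates 2 and 3 were the lowest, and the groups did not overlap. Per2 had a log2 fold change of 0.68 ± 0.15 (SE; edgeR adjusted p = 0.0228), or 1.61-fold. Cry1 was at 10.6, 16, 16.2, 11.2 and 14.1 CPM against 21.6, 17.1, 20.1, 17 and 21.9 CPM, with the lowest morphine libraries just above the highest saline ones. Its log2 fold change was 0.52 ± 0.11 (SE; edgeR adjusted p = 0.0151). Ciart, which encodes the repressor CHRONO, rose by 0.58 ± 0.13 on the log2 scale, from 13.4 to 16.1 CPM in saline to 17.3 to 26.3 CPM in morphine libraries (edgeR adjusted p = 0.0222). Per1 was higher in every morphine library (137 to 166 CPM, against 95 to 133 CPM) but did not pass, at 0.42 ± 0.12 (SE; edgeR adjusted p = 0.0961). It passed in edgeR fits of the compared groups alone (0.0105) and of the 20 adult libraries (0.0187), and with limma-voom (0.0308) and DESeq2 (0.0296). Per3 was at 0.25 ± 0.09 (adjusted p = 0.207), Cry2 at 0.07 ± 0.06 (0.723) and Nr1d1, for REV-ERB alpha, at -0.10 ± 0.06 (0.504), each a log2 fold change with its SE and edgeR adjusted p.

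The list of activators of the loop, which also holds the repressor gene Nfil3, showed no common direction. Of 7 tested, 1 was called higher and 0 lower, with 4 negative values and a median log2 fold change of -0.198. The called gene was Rora, a nuclear receptor that activates Arntl, at 55.3 to 69.4 CPM in saline and 78.1 to 98.9 CPM in morphine libraries (log2 fold change 0.54 ± 0.13, SE; edgeR adjusted p = 0.0354). Arntl was at 33.6, 32, 32.1, 28.6 and 34 CPM with saline and 27.1, 30.0, 29.5, 26.9 and 26.2 CPM with morphine. The groups overlapped at saline replicate 4, and the log2 fold change was -0.20 ± 0.07 (SE; edgeR adjusted p = 0.248). Clock, the partner of Arntl, was at 0.07 ± 0.07 (adjusted p = 0.76), its paralog Npas2 at -0.22 ± 0.08 (0.21) and Nfil3, which encodes a repressor that competes with the PAR bZIP proteins, at -0.50 ± 0.18 (0.24). Among the clock genes, Hlf, Dbp, Tef, Bhlhe41, Nr1d2 and Bhlhe40 kept their calls without any single library, whereas the others lost theirs without some. Cry1 lost its call without saline replicates 1 and 4 or morphine replicates 1 and 5 (edgeR adjusted p up to 0.114), and in a fit of the compared groups alone (0.0559). Per2 lost it without saline replicates 2, 3 and 4 or morphine replicates 1, 2 and 5 (up to 0.129), Ciart without all but saline replicate 1 and morphine replicates 3 and 4 (up to 0.132), and Rora without all but saline replicate 1 and morphine replicate 4 (up to 0.136). With surrogate variables, 6 covariates estimated from the counts to stand for hidden variation, Rora was at 0.14 (adjusted p = 0.688), Bhlhe40 at 0.30 (0.353) and Cry1 at 0.47 (0.105).

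**Figure D2:**
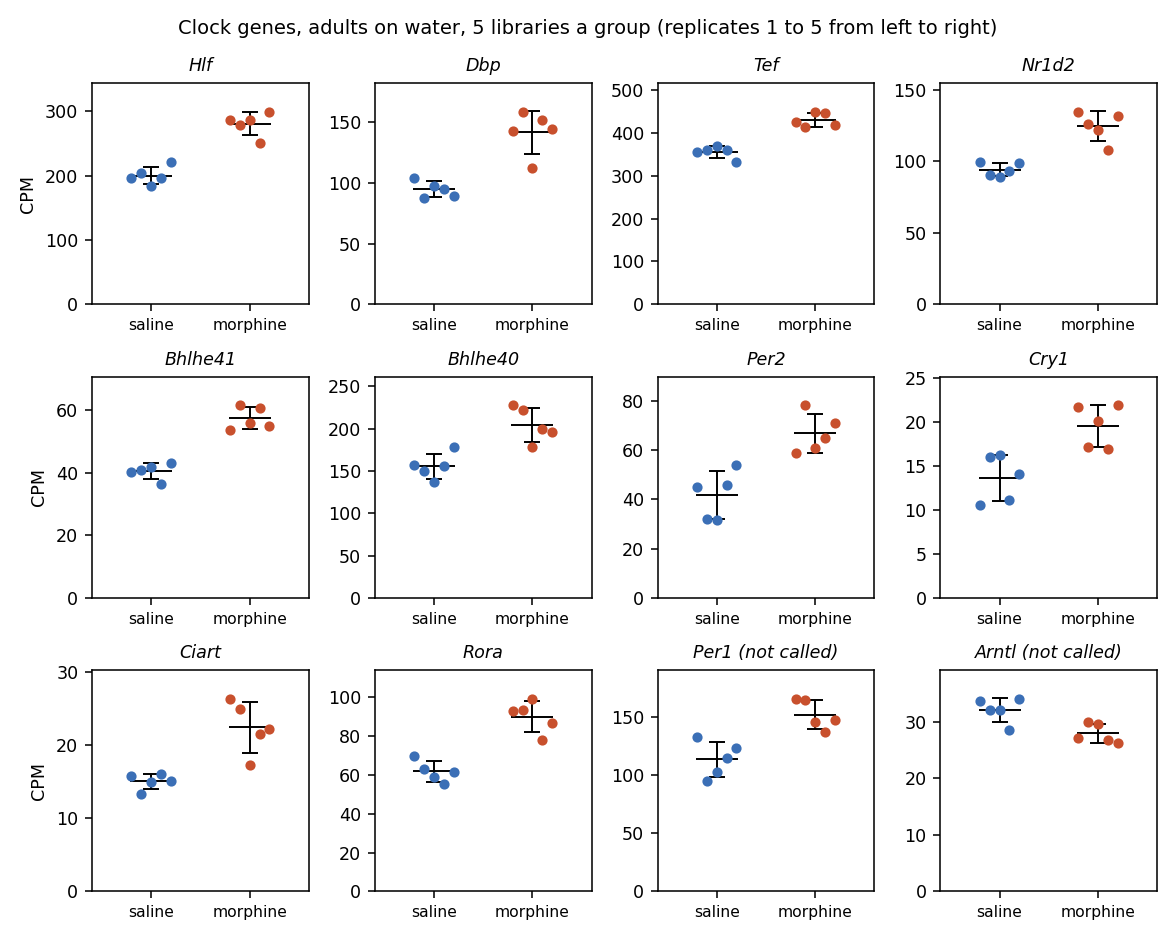
CPM of 12 clock genes in each of the 5 saline (blue) and 5 morphine (red) libraries, on axes that start at 0, with bars for the mean and SD of each group. The 3 PAR bZIP genes and 7 other called genes are higher in every morphine library, Per1 is higher without passing the test, and Arntl overlaps.

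Many immediate early genes fell. Of 32 tested, 16 were called lower, beside 0.213% of all genes, and 0 higher. This list too was chosen with earlier results known, so its shares only describe it. A negative log2 fold change was found for 28, and the median was -0.563 beside 0.0123 over all genes. All 5 morphine libraries were below all 5 saline libraries for 17 of the 32, where 1% of all genes were apart in this direction. Summed over the list, the level was 2112 to 2777 CPM in saline and 1735 to 2068 CPM in morphine libraries, so the sums did not overlap either. Btg2, a cell cycle inhibitor whose promoter with its CRE is printed above, had the smallest p of all genes. It was at 25.3, 29.4, 34.9, 32.8 and 25.1 CPM in saline replicates 1 to 5 and 5.46, 10.3, 7.38, 10.6 and 14 CPM in morphine replicates 1 to 5. The lowest saline library was well above the highest morphine library, and Btg2 fell by 1.62 ± 0.20 on the log2 scale (SE; edgeR adjusted p = 1.51e-05). Ccn1, which encodes a matricellular protein released into the matrix, had the largest fall of the called genes. It was at 9.28, 10.1, 10.1, 9.74 and 12.5 CPM with saline and 3, 2.33, 2.77, 3.06 and 3.17 CPM with morphine. The change was -1.85 ± 0.26 on the log2 scale (SE; edgeR adjusted p = 3.89e-05).

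Ier2, a nuclear early response gene, was at 13.5, 17, 17.1, 15.1 and 18.2 CPM with saline and 6.96, 9.72, 5.54, 7.48 and 7.43 CPM with morphine. It fell by 1.12 ± 0.16 on the log2 scale (SE; edgeR adjusted p = 6.67e-05) with no overlap between the groups. Gadd45g and Gadd45b encode growth arrest proteins that also act in DNA demethylation. Gadd45g was at 10.4, 13.3, 16.3, 15.3 and 13.9 CPM against 4.93, 5.83, 5.54, 8.43 and 9.18 CPM, a fall of 1.03 ± 0.16 on the log2 scale (SE; edgeR adjusted p = 0.000101). Gadd45b fell by 0.49 ± 0.12 on the same scale (SE; edgeR adjusted p = 0.0453). Dusp1, a phosphatase that switches MAP kinases off and is itself induced by them, was at 39.3, 57.7, 57.9, 53.2 and 68 CPM against 23.7, 27.5, 27.7, 25.3 and 33.1 CPM. It fell by 1.01 ± 0.15 on the log2 scale (SE; edgeR adjusted p = 0.000158), and it was the 1 gene called among 12 MAP kinase phosphatases and feedback inhibitors, whose median log2 fold change was -0.0833. Dusp4, another phosphatase of the family, was on the other side at 0.58 ± 0.15 without passing (edgeR adjusted p = 0.0718), and Dusp6 was at -0.12 ± 0.09 (0.671). Dusp1 overlaps Ergic1 on the opposite strand.

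The subunits of the AP-1 transcription factor divided into called and not called members. Fos was at 31.1, 39.1, 36.3, 42.9 and 54.7 CPM in saline and 20.4, 22, 11.7, 15.5 and 24.9 CPM in morphine replicates 1 to 5. Saline replicate 5 was the highest and morphine replicate 3 the lowest, and the log2 fold change was -1.10 ± 0.23 (SE; edgeR adjusted p = 0.0156). Without either of those libraries Fos did not pass (-0.99 in both cases, adjusted p = 0.0635 and 0.0619). Fosb fell by 0.75 ± 0.14 on the log2 scale (SE; edgeR adjusted p = 0.00154), from 19.2 to 30.7 CPM to 13.1 to 16.5 CPM. Jun fell by 0.58 ± 0.10 (SE; edgeR adjusted p = 0.000677), from 50.1 to 64.5 CPM to 33.7 to 46.7 CPM, and Junb by 0.78 ± 0.17 (adjusted p = 0.0222). Fosl2, at -0.43 ± 0.15 (adjusted p = 0.229), and Jund, at -0.19 ± 0.07 (0.273), did not pass. Jun and Junb overlap Junos and Prdx2 on the opposite strand.

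Among the transcription factors and effectors that follow synaptic activity, Arc, whose protein acts at the dendritic spine, was at 193, 218, 244, 235 and 314 CPM with saline and 101, 127, 94.2, 142 and 134 CPM with morphine. The groups were apart, and Arc fell by 1.01 ± 0.24 on the log2 scale (SE; edgeR adjusted p = 0.0449). Egr2 fell by 1.11 ± 0.24 (adjusted p = 0.0222), from 13.2 to 21 CPM to 5.79 to 8.46 CPM. Its relatives had smaller values that did not pass: Egr1 was at -0.23 ± 0.20 (adjusted p = 0.737), Egr3 at -0.17 ± 0.09 (0.481) and Egr4 at -0.60 ± 0.18 (0.137), each a log2 fold change with SE. Of the orphan nuclear receptors Nr4a1 fell by 0.68 ± 0.15 on the log2 scale (edgeR adjusted p = 0.0296), whereas Nr4a2 and Nr4a3 were at -0.54 ± 0.16 (0.132) and -0.34 ± 0.19 (0.532). Npas4, a neuron-specific factor induced by depolarization, was lower in every morphine library but at -1.02 ± 0.35 (SE) did not pass (edgeR adjusted p = 0.202). The kinase gene Sik1, the pseudokinase gene Trib1, Klf2 and Csrnp1 fell by 0.78 ± 0.16, 0.53 ± 0.11, 0.82 ± 0.19 and 0.60 ± 0.14 on the log2 scale (SE; edgeR adjusted p = 0.0131, 0.00674, 0.0274 and 0.0315). The members with positive values, none called, were Per1, Ier5, Homer1 and Maff.

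Saline replicate 5 was the highest of its group in 11 of the 16 immediate early genes called lower, and saline replicate 1 the lowest in 11. Without saline replicate 5 the number called lower was 8, without morphine replicate 3 also 8 and without morphine replicate 1 it was 9, while other single omissions left 11 to 16. Btg2, Ccn1, Ier2, Gadd45g, Dusp1, Trib1, Sik1, Fosb and Jun kept their calls whichever library was left out. Arc lost its call without all but saline replicate 1 and morphine replicate 4 (edgeR adjusted p up to 0.149), as did Gadd45b without all but the same libraries (up to 0.13). Egr2 lost it without saline replicate 5 or morphine replicates 1, 3 and 5 (up to 0.0824), Junb without saline replicates 4 and 5 or morphine replicates 1 and 3 (up to 0.087), and Csrnp1 without saline replicates 2 and 5 or morphine replicates 1, 2 and 3 (up to 0.108). Nr4a1 lost it without saline replicates 2, 4 and 5 or morphine replicates 1, 3 and 5 (up to 0.0981), and Klf2 without saline replicates 2 to 5 or morphine replicates 1 and 3 (up to 0.11). With surrogate variables 11 were called, and Jun, Fosb, Junb, Egr2 and Klf2 were at -0.53, -0.71, -0.83, -1.27 and -0.63 (adjusted p = 0.113, 0.0551, 0.104, 0.113 and 0.0835).

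**Figure D3:**
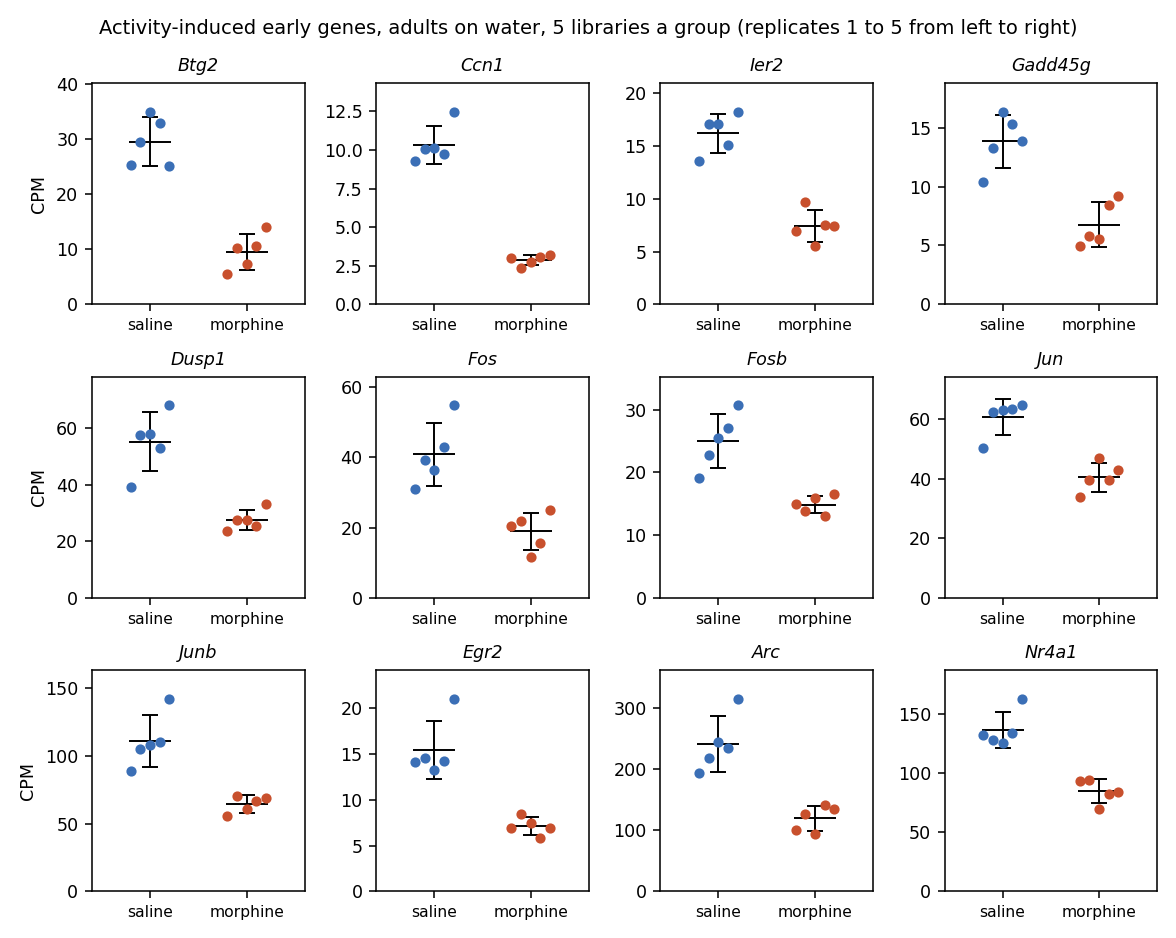
CPM of 12 early genes in each of the 5 saline (blue) and 5 morphine (red) libraries, on axes that start at 0, with bars for the mean and SD of each group. In all 12 the morphine libraries lie below the saline libraries. Saline replicate 5, the rightmost blue point, is the highest of its group for all of them but Btg2 and Gadd45g.

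Cdkn1a encodes the cell cycle inhibitor p21, and it is also a target of glucocorticoids. It was at 26.3, 27.2, 28.2, 28.5 and 27 CPM with saline and at 18.2, 16.4, 19, 19 and 17.2 CPM with morphine. The groups were far apart, and it fell by 0.61 ± 0.11 on the log2 scale (SE; edgeR adjusted p = 0.000677), and by 0.51 with surrogate variables (0.0782). It overlaps AC167363.2 on the opposite strand. It was the 1 gene called of 25 tested glucocorticoid receptors and targets, beside 0.475% of all genes, and the median of that list was 0.0341. An unadjusted p under 0.05 was reached by 11 of the 25, beside 11.1% of all genes. Fkbp5, a co-chaperone of the glucocorticoid receptor and one of its most responsive targets, was at 18.5 to 25.2 CPM with saline and 24.7 to 29.4 CPM with morphine (log2 fold change 0.23 ± 0.12, SE; edgeR adjusted p = 0.449). Other targets were on both sides, with Klf9 at 0.22 ± 0.07 (0.177), Sgk1 at -0.17 ± 0.12 (0.666) and Tsc22d3 at 0.10 ± 0.10 (0.768). Of 18 secreted and synaptic genes regulated by activity over longer times, 1 was called, and the list median was -0.115. The called gene was Nptx2, a pentraxin that gathers AMPA receptors at synapses, which fell by 0.42 ± 0.10 on the log2 scale (SE; edgeR adjusted p = 0.0301). Its groups overlapped, because morphine replicate 3 was at 72 CPM among saline values of 69.9 to 83.8 CPM, and it lost its call without saline replicate 4 or morphine replicates 1 and 5 (adjusted p up to 0.0912) and with surrogate variables (-0.40, 0.12). Bdnf, the neurotrophin, was at -0.17 ± 0.10 (adjusted p = 0.586).

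Genes of the opioid system did not pass. Of 10 opioid receptors and peptide precursors, 0 were called, 0 reached an unadjusted p under 0.05 (11.1% of all genes did) and the log2 fold changes ran from -0.357 to 0.143. Oprm1, which encodes the mu receptor through which morphine acts, was at 4.54, 4.53, 3.58, 6.46 and 5.09 CPM with saline and 3.64, 3.5, 6.35, 2.84 and 4.04 CPM with morphine. The groups overlapped, and the log2 fold change was -0.25 ± 0.21 (SE; edgeR adjusted p = 0.721). Oprd1 and Oprk1, for the delta and kappa receptors, were at -0.08 ± 0.09 (0.826) and -0.36 ± 0.27 (0.677), and the precursors of enkephalin and dynorphin, Penk and Pdyn, at 0.12 ± 0.15 (0.837) and 0.14 ± 0.10 (0.627). The level of Oprm1 was low, which limits what was detectable at this depth, and it overlaps Ipcef1 on the opposite strand. Downstream of these receptors, 0 of 17 adenylyl cyclase and protein kinase A genes, 0 of 31 G protein subunits and regulators, 0 of 16 dopamine signalling genes, 0 of 14 GABA and 0 of 25 glutamate receptor genes were called, beside 0.475% of all genes. In the same order 4, 7, 6, 3 and 3 of them had an unadjusted p under 0.05. Their list medians lay between -0.00318 and 0.0785.

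Genes outside the lists made up most of the calls. Sphk2, a sphingosine kinase, was at 58.8, 58.3, 61.4, 61 and 55.9 CPM in saline and 79.8, 80.8, 71.1, 84.7 and 77.9 CPM in morphine replicates 1 to 5. It rose by 0.42 ± 0.07 on the log2 scale (SE; edgeR adjusted p = 0.000141) and, like its overlapping neighbour Dbp, was lowest in morphine replicate 3. Ankrd33b and Tmem132d, a neuronal membrane protein gene, rose by 0.42 ± 0.07 and 0.46 ± 0.08 (adjusted p = 0.000232 and 0.000437). Gpcpd1, which encodes a glycerophosphocholine phosphodiesterase, rose by 0.31 ± 0.06, Enpp2, which encodes autotaxin, the enzyme that makes lysophosphatidic acid, by 0.37 ± 0.08, and Shroom2, an actin regulator, by 0.32 ± 0.07 (adjusted p = 0.00253, 0.00796 and 0.0104). Enpp2 is expressed by choroid plexus and oligodendrocytes as well as neurons. The tested choroid plexus markers summed to 3.73 to 6.39 CPM in saline and 3.21 to 4.57 CPM in morphine libraries, and the myelin markers are given below. With surrogate variables the calls of Ankrd33b, Tmem132d, Gpcpd1, Enpp2 and Shroom2 ended, at log2 fold changes of 0.30, 0.26, 0.21, 0.13 and 0.18. Single omissions ended those of Enpp2 (without saline replicates 2, 3 and 4 or morphine replicate 1, adjusted p up to 0.0777) and Shroom2 (without saline replicates 4 and 5 or morphine replicate 1, up to 0.0825).

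Of the remaining calls, the 4 genes that follow, Cotl1 and Ptgs2 are outside the rule for named genes and were picked after their values were seen. Kcnq5, a subunit of the M current, rose by 0.43 ± 0.10 on the log2 scale, and Adam23 and Lgi2, a receptor and a secreted ligand of the same adhesion system, rose by 0.39 ± 0.09 and 0.41 ± 0.09 (SE; edgeR adjusted p = 0.0224, 0.0224 and 0.0222). Kcng4, a modifier subunit of Kv2 channels, was at 2.32, 2.82, 2.22, 3.28 and 2.17 CPM against 4.71, 5.74, 5.19, 4.95 and 5.46 CPM, with a log2 fold change of 1.02 ± 0.25 (SE; edgeR adjusted p = 0.0379). Kcng4 and Lgi2 had no overlap between the groups, and Kcnq5 and Adam23 overlapped at morphine replicate 4. Each of these 4 genes lost its call with surrogate variables, at 0.13, 0.11, 0.16 and 0.55 in the order given, and without any of at least 7 single libraries (adjusted p up to 0.144). Among genes called lower that are not on the immediate early list were Zfp580, Tob1, an antiproliferative relative of Btg2, Ehbp1l1 and Cotl1, an actin-binding protein gene. They fell by 0.51 ± 0.10, 0.40 ± 0.08, 0.45 ± 0.09 and 0.43 ± 0.09 on the log2 scale (SE; edgeR adjusted p = 0.00768, 0.00796, 0.00796 and 0.00962). Zfp580, Ehbp1l1 and Cotl1 were at -0.35, -0.18 and -0.17 with surrogate variables (adjusted p = 0.24, 0.647 and 0.604), whereas Tob1 kept its call. Ptgs2, which encodes the inducible cyclooxygenase COX-2 and is switched on by activity in cortical neurons, fell by 0.58 ± 0.12 on the log2 scale (adjusted p = 0.0101), by 0.54 without morphine replicate 1 (0.0564) and by 0.52 with surrogate variables (0.113).

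The gene with the largest fold, the unnamed transcript AC167245.1, had 0.0966 to 0.542 CPM in saline and 0.292 to 1.47 CPM in morphine libraries, so that saline replicates 1 to 4 were under the level of 3 counts and no fold is given.

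Myelin genes were higher in the morphine libraries without any of them passing. Of 18 oligodendrocyte and myelin markers 0 were called, and the list median was 0.392. A positive log2 fold change was found for 17, and 14 had an unadjusted p under 0.05. Over all genes tested, the shares were 53.3% and 11.1%. The summed level of the list was 1198, 1260, 1361, 1318 and 1267 CPM in saline and 1733, 1663, 1395, 1861 and 1831 CPM in morphine replicates 1 to 5. The lowest morphine library, replicate 3, was just above the highest saline library, replicate 3. Mbp, for myelin basic protein, was at 434, 481, 508, 501 and 452 CPM against 642, 622, 518, 763 and 700.0 CPM (log2 fold change 0.45 ± 0.16, SE; edgeR adjusted p = 0.251), and passed in a fit of the 2 compared groups alone (adjusted p = 0.00937). In bulk tissue, more cells of a type and more RNA per cell cannot be told apart. Precursors of oligodendrocytes had a list median of 0.0551, astrocyte markers 0.0394, microglia markers 0.0118 and excitatory neuron markers 0.0532, each with 0 called.

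The myelin sums separated the groups as the drug did. The comparison of adults on water was therefore also computed with the mean log2 level of the myelin list as a covariate. This alternative was added after the data were seen. Because the sums of the groups did not overlap, calls kept or lost with it cannot separate myelin level from the drug. With the covariate 43 genes were called, of which 39 were among the 85. The PAR bZIP genes kept all 3 calls, clock repressors 4 of 6 and immediate early genes 13 of 16. Rora was at 0.42 (edgeR adjusted p = 0.192), Per2 at 0.68 (0.082) and Cry1 at 0.50 (0.0547), while Arc, Fos and Btg2 stayed called. Sik1, Klf2 and Nr4a1 did not pass with it (adjusted p = 0.0756, 0.0845 and 0.0507). Their values with it, -0.73, -0.83 and -0.74 on the log2 scale, are close to those without it. Zfp580, Enpp2, Shroom2, Cotl1, Ptgs2, Nptx2, Kcnq5, Adam23 and Lgi2 did not pass either, with smaller values in the same direction, and Kcng4 was at 0.63 (0.315). Mitochondrially encoded transcripts summed to 31240 to 43430 CPM in saline and 35540 to 50590 CPM in morphine libraries, all 13 with positive values (median 0.229) and 0 called. Of 76 cytosolic ribosomal protein genes 74 had negative values (median -0.111) and 0 were called. Whether these differences bear on the called genes was not tested.

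**Figure D4:**
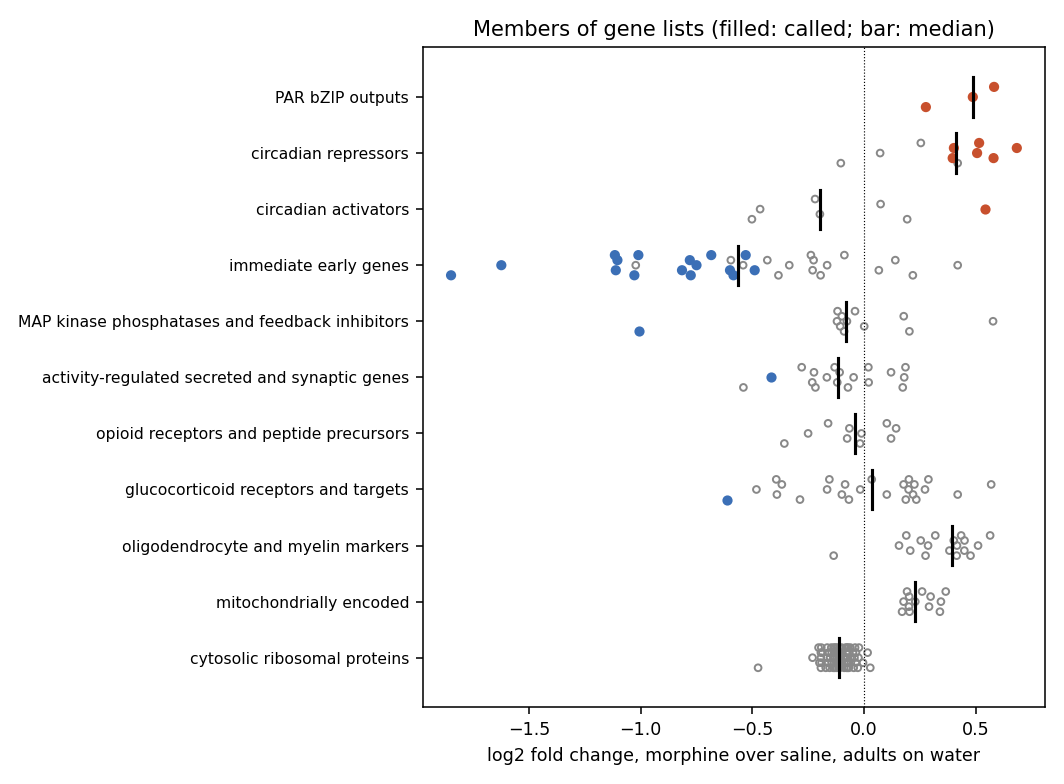
Each circle is a tested member of a gene list at its log2 fold change of morphine over saline, filled red or blue where called higher or lower, with a bar at the list median. Early genes lie to the left (median -0.563), PAR bZIP genes and clock repressors to the right (0.487 and 0.41), and myelin markers to the right with none called (0.392).

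The same drug given to adolescents on water called 57 genes (0.319%), and to adults on antibiotics 38 genes (0.213%). These comparisons use other libraries than the adult one on water, though all are fitted with one estimate of the spread. Of the 47 genes called higher in adults on water, 11 were also called higher in adolescents (23.4%, and 33.3% of the 33 called there) and 10 in adults on antibiotics (21.3%, and 55.6% of 18). Of the 38 called lower, 10 were also called lower in adolescents (26.3%, and 41.7% of 24) and 7 in adults on antibiotics (18.4%, and 35% of 20). Called in all 3 with the same direction were 10 genes, namely Dbp, Tef, Hlf, Per2, Cry1, Bhlhe41, Sphk2 and the folate enzyme gene Mthfd1l, all higher, and Arc and Cdkn1a, both lower. The PAR bZIP genes had like values throughout, with Dbp at 0.58 ± 0.09 in adults on water, 0.72 ± 0.09 in adolescents and 0.65 ± 0.09 in adults on antibiotics (log2 fold change, SE). The differences of Dbp from the other settings had adjusted p-values above the threshold in edgeR, and among the 3 PAR bZIP genes the smallest unadjusted p was 0.112 (Hlf against adolescents). Of the 20 clock genes tested, 10 were called higher in adults on water, 8 in adolescents and 8 in adults on antibiotics, with 0, 1 and 1 called lower. The 1 called lower was Arntl in both, at -0.32 ± 0.07 in adolescents and -0.42 ± 0.07 in adults on antibiotics (edgeR adjusted p = 0.0216 and 0.0012).

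Early genes were called in all 3 settings in different numbers. Of the 32 tested, 16 were called lower in adults on water, 7 in adolescents and 6 in adults on antibiotics, with list medians of -0.563, -0.177 and -0.251. Tests of the difference between adults and adolescents on water called 0 of 17880 genes with edgeR and 0 with limma-voom with sample weights. With no filter on low counts edgeR called 55, and DESeq2 on all deposited genes called 48. Of the genes tested, 1788 (10%) had an unadjusted p under 0.05. Tests of the difference between water and antibiotics in adults called 0 with edgeR, 0 with limma-voom with sample weights and, with no filter on low counts, 15 with edgeR and 1 with DESeq2, and 1214 genes (6.79%) had an unadjusted p under 0.05. Among the 32 early genes, 8 (25%) had an unadjusted p under 0.05 for the difference between ages and 12 (37.5%) for that between drinks. A gene called in one setting and not in another is thus not shown to differ. Btg2, the 1 gene that DESeq2 called, came closest: it was at -1.62 ± 0.20 on water and -0.07 ± 0.21 on antibiotics, a difference of -1.55 ± 0.29 on the log2 scale (SE; edgeR adjusted p = 0.104), and it passed edgeR's test without adult water morphine replicate 5. Its mean level was 29.5 ± 4.37 CPM in adult saline on water, and 10.4 ± 1.87 CPM in adult saline on antibiotics, where morphine libraries were at 9.91 ± 2.44 CPM (SD, n = 5 each). Gadd45g was alike, at -1.03 ± 0.16 on water and -0.05 ± 0.17 on antibiotics (difference -0.98 ± 0.23, edgeR adjusted p = 0.391). Arc, by contrast, fell by 1.01 ± 0.24 on water and by 1.14 ± 0.24 on antibiotics.

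Between the ages, the vacuolar proton pump gene Atp6v0c and Kcng4 were among the genes with the smallest p-values of the difference, though neither passed. Atp6v0c was at -0.18 ± 0.06 in adults and 0.21 ± 0.06 in adolescents (difference -0.40 ± 0.09, edgeR adjusted p = 0.175), and Kcng4 at 1.02 ± 0.25 and -0.49 ± 0.23 (difference 1.51 ± 0.34, adjusted p = 0.191). Without adolescent saline replicate 1, 8 genes were called, both of these among them, and without adolescent saline replicate 3, 2 genes were called, Atp6v0c among them. Of the 18 myelin markers, 17 had positive values in adults on water, 2 in adolescents on water and 17 in adults on antibiotics. The median of the difference over the list was 0.548, beside 0.0118 over all genes, and 12 of the 18 had an unadjusted p under 0.05, but 0 passed (the smallest was for Fa2h, at 0.80 ± 0.22, edgeR adjusted p = 0.215). The summed myelin level was 1281 ± 61.8 CPM in adult saline and 1697 ± 186 CPM in adult morphine libraries on water, and 1895 ± 425 and 1675 ± 110 CPM in the adolescent ones (SD, n = 5 each).

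**Figure D5:**
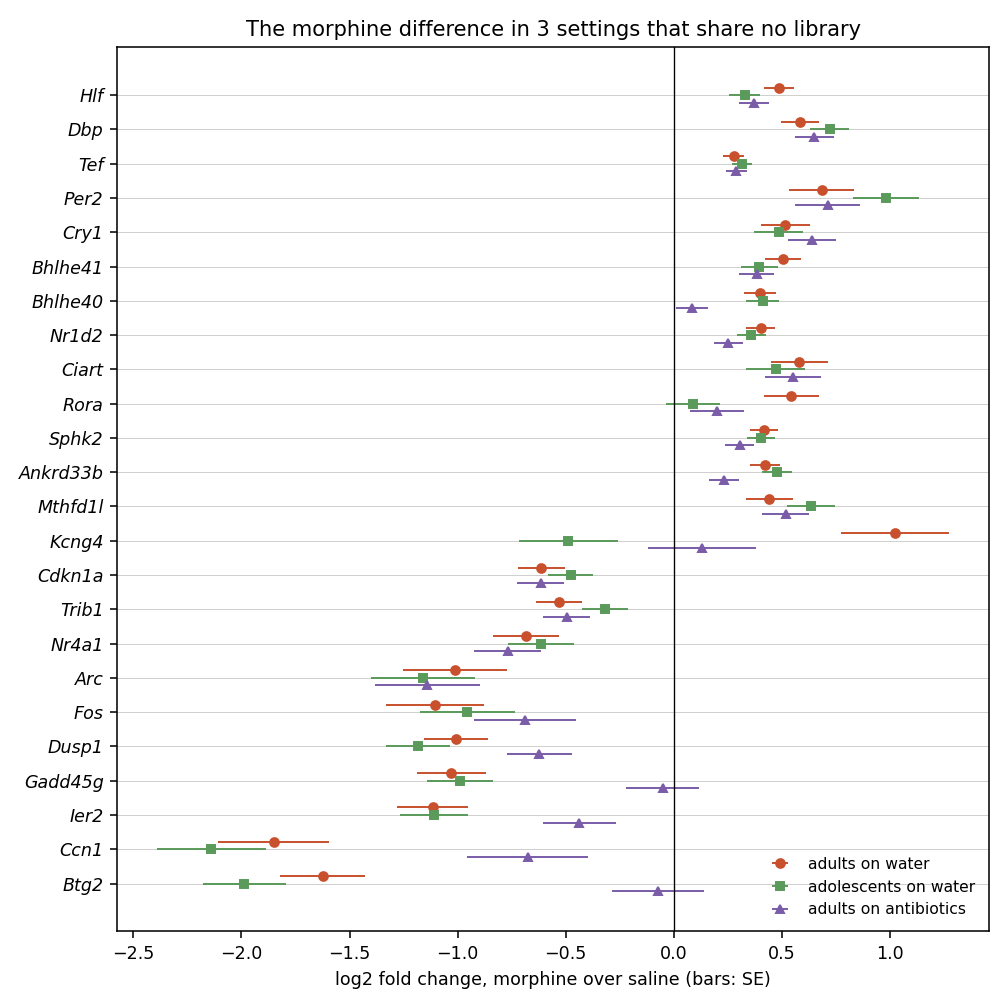
Log2 fold change of morphine over saline with its SE for 24 genes in adults on water (red circles), adolescents on water (green squares) and adults on antibiotics (purple triangles). Hlf, Dbp and Tef are positive in all 3 settings, whereas Btg2 and Gadd45g lie near 0 in adults on antibiotics (-0.07 and -0.05), and Kcng4 is on opposite sides of 0 in the 2 ages.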

How the data were processed

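RNA was sequenced from 40 libraries in 8 groups of 5, of which the 10 adult libraries on water are reported here. The values are raw counts per gene as the authors deposited them. Per the submitters' processing notes, STAR 2.7.10a, DESeq2 and the build mm10 were used. The counting annotation and whether it used strand are not stated there. Of 56980 identifiers, 52073 (91.4%) were matched to symbols, and GENCODE M21 served to find overlapping exons. Genes with enough counts (edgeR's filterByExpr, minimum count 10 and total 15) left 17880 genes, which held 99.79 to 99.82% of the counts. One quasi-likelihood model with a coefficient per group was fitted to all 40 libraries in R 4.3.3 with edgeR 4.0.16 (TMM scaling, robust, 2-sided), with Benjamini-Hochberg adjustment over all genes tested and 0.05 as the threshold. CPM values are TMM-scaled, and the SE is the log2 fold change divided by the square root of F. The model was also run on simulated data, and the outcome is not given here. Counts of replicates differed by more than sampling noise (chi-square per gene 2.44 to 14.6). The level of 3 counts covers counting error only.

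The members and the gene lists were chosen with earlier results of these data known. Named by rule were the 12 genes with the smallest p among those called in each direction with at least 1 CPM and an established symbol, up to 4 called members of each list, up to 6 genes called in a test of a difference, and a set of opioid, clock and activity genes. Other members of the lists and other genes were named after their values were seen. Alternatives were RLE size factors, other filters on low counts, fits of fewer groups, a replicate block, surrogate variables (sva 3.50.0), limma-voom with sample quality weights (limma 3.58.1), DESeq2 1.42.0 on all deposited genes, a myelin covariate and leaving out each library. Results that need 2 genes are not reported here.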

Additional observations from a re-analysis of the deposited data

Results flagged for a closer look

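In the named genes, 78 groups of 5 libraries were examined for a library far from the other 4, and 9 were found, where chance gives about 1 group in 20. Among genes called higher, Ankrd33b was at 145 CPM in morphine replicate 4 against 173 to 180 CPM in the other morphine libraries. Gpcpd1 was at 87.9 CPM in saline replicate 5 against 83.1 to 83.6 CPM, and Enpp2 at 210 CPM in morphine replicate 1 against 184 to 187 CPM.

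Among genes called lower, saline replicate 5 was the highest for Ccn1 (12.5 CPM against 9.28 to 10.1 CPM) and for Trib1 (38.7 CPM against 31.7 to 32.6 CPM). Jun was lowest in saline replicate 1, at 50.1 CPM against 62.2 to 64.5 CPM, and Tob1 highest in morphine replicate 5, at 41.1 CPM against 32.1 to 34 CPM. Nptx2 had a distant library in each group, saline replicate 4 at 83.8 CPM (others 69.9 to 71.1 CPM) and morphine replicate 3 at 72 CPM (others 47.9 to 53.4 CPM).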

How the results depend on the processing

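The 85 calls became 213 with no filter on low counts, 148 in a fit of the compared groups alone, 29 with surrogate variables, 43 with the myelin covariate, 219 with limma-voom with sample quality weights and 146 with DESeq2 on all deposited genes. Leaving out single libraries gave 30 to 153. RLE size factors, a filter of 1 CPM in 5 libraries and the 20 adult libraries alone gave 85, 85 and 88, of which 80, 85 and 64 were among the 85. Of the 85 genes, 14 stayed called in every setting and 0 changed direction. The difference between ages, with 0 calls, had 55 with no filter, 1 in the fit of the compared groups (Nr4a3), 48 with DESeq2 and 0 to 8 when single libraries were left out. The difference between drinks, also with 0, had 15 with no filter, 1 with DESeq2 and 0 to 1 without single libraries. Replicate numbers did not pair the libraries: deviations of same-numbered libraries correlated at -0.368 to 0.327, with 1 of 5 pairs over 0.1, and 1 of 5 saline libraries was closest to its own number. With the replicate block 96 genes were called, 80 of them among the 85 and Nr4a1 not (adjusted p = 0.0511), and the difference between drinks called 2, Btg2 and Gadd45g. Among genes not called, Oprk1 changed sign with surrogate variables (log2 fold change 0.12), as did Penk with surrogate variables (-0.0872) and with the myelin covariate (-0.10). The cause of these changes was not tested. A fit of the 20 adult libraries does not apply to the difference between ages. Depth of 9.1 to 10.4 M counts limits genes near 3 counts.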

Other observations

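Blood cell markers had positive log2 fold changes in 6 of 6 tested genes (median 0.215), endothelial markers in 12 of 17 (0.112) and perineuronal net and matrix genes in 10 of 12 (0.0977), with 0 called in each. Mural, fibroblast and leptomeningeal markers were negative in 13 of 18 (median -0.169), also with 0 called. Of 14 GABA receptor genes 12 and of 18 chaperones of the endoplasmic reticulum 15 had positive values, with medians of 0.0785 and 0.0326 and 0 called, beside 53.3% of all genes tested with a positive value. Nuclear genes of the respiratory chain were negative in 58 of 74 (median -0.0494), with 0 called.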
